A study of Homo sapiens with 16 samples.

Results

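The mitochondrial ribosomal protein genes were examined in HCT116 cells, a human colon cancer cell line, as 79 protein-coding rows among the 33937 gene rows of the count matrix. They were chosen by symbol alone, as the 49 genes named MRPL and the 29 named MRPS with a number, and *DAP3* was added because it encodes a small subunit protein under another kind of name. The mitochondrial ribosome, or mitoribosome, translates the few proteins that mitochondrial DNA encodes, all of them parts of the respiratory chain and ATP synthase. Its rRNAs are transcribed in the mitochondrion, whereas every protein of its large and small subunits is encoded in the nucleus, made on cytosolic ribosomes and imported. Of the 79 genes, 51 encode proteins of the large subunit, among them *MRPS30* and *MRPS18A* despite their symbols, and 27 encode proteins of the small subunit. The remaining gene, *MRPS36*, kept its old symbol but encodes a component of the 2-oxoglutarate dehydrogenase complex, and was retained because the symbol was the criterion. A further 33 rows with such a symbol were pseudogenes or non-coding RNAs and were left out. Doxycycline, the inducer of the shRNA used here, belongs to the tetracyclines, antibiotics that bind bacterial ribosomes and are also known to inhibit mitochondrial translation.

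RNA-seq was performed on 4 libraries of each of 4 groups. Cells with a stably integrated, doxycycline-inducible scramble shRNA are called SCR and cells with an inducible shRNA against *NAA40*, a histone N-terminal acetyltransferase, NAA40-KD. The +dox groups received 1 μg/ml doxycycline for 96 h and the -dox groups none. Both lines carry the integrated shRNA system with or without the drug, and whether a line was 1 clone or a pool is not given in the sources used here. The 16 libraries held 11065606 to 13855486 counts each, of which 37033 to 56138 fell on the mitoribosomal genes.

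Levels are given as CPM, counts scaled to the library size and by TMM factors, as mean ± SD over n = 4. *NAA40* had 11.8 ± 1.94 CPM in NAA40-KD (-dox), 29.4 ± 3.63 in SCR (-dox), 27.4 ± 1.45 in SCR (+dox) and 30.3 ± 1.59 in NAA40-KD (+dox). By these labels, the targeted gene was low in the knockdown libraries labelled without the inducer, at 40.2% of SCR (-dox) (exact permutation test, two-sided, p = 0.0286, the smallest that 4 libraries against 4 allow), and not in those labelled with it. Groups are called here by their labels throughout, and whether the labels of the knockdown line were exchanged was not tested. The study's methods say that knockdown was assessed by qRT-PCR for this experiment, measurements that were not analysed here. Replicate 4 of NAA40-KD (-dox) stood apart from its group, with GC-rich genes high and AT-rich genes low, so that each comparison with this group is also given without it. The epithelial markers *EPCAM*, *KRT8*, *KRT18*, *KRT19*, *CDH1* and *CDX2* were detected in every library. The sum of the 8 epithelial markers was 5137 to 11094 CPM in NAA40-KD (-dox), highest in replicate 4, against 3812 to 5508 CPM in the other groups. The part of this difference in the results below was not tested. The summed level of 5 haematopoietic markers was 0.356 to 1.38 CPM and that of 3 endothelial markers 0.498 to 2.96 CPM. That of 5 fibroblast markers was 57.1 to 196 CPM, highest in NAA40-KD (-dox) replicate 4. Nearly all of it was *COL1A1*, with *COL1A2* and *DCN* at no more than 1 count. Of the 8 epithelial markers, *VIL1* and *LGALS4*, markers of differentiated enterocytes, had at most 3 and 7 counts in any library. Nothing in the labels says that the replicates came from separate cultures, although the study's methods call the RNA samples independent.

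Levels of the mitoribosomal genes spread widely around a shared middle range. Per kb of annotated exon, the mean over all 16 libraries ranged from 0.0768 to 63.8 CPM, with a median of 14.5 CPM per kb, and 69 of the 79 genes lay at or above 5 CPM per kb. The median was 14.5 CPM per kb for the large subunit and 17.2 CPM per kb for the small subunit. The 3 highest per kb all encode small subunit proteins, namely *MRPS34* at 63.8, *MRPS10* at 51.2 and *MRPS18B* at 49.7 CPM per kb. *MRPL3* of the large subunit followed closely, also at 49.7 CPM per kb. Its group mean was above that of *MRPS18B* in both SCR groups and below it in both NAA40-KD groups. *MRPS34* is a mitochondria-specific protein of the small subunit, *MRPS10* is the counterpart of bacterial uS10, and *MRPS18B* is one of the paralogues of bacterial bS18. The 3 lowest were *MRPS24* at 0.0768, *MRPS18C* at 0.339 and *MRPL46* at 0.475 CPM per kb.

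**Figure D1:**
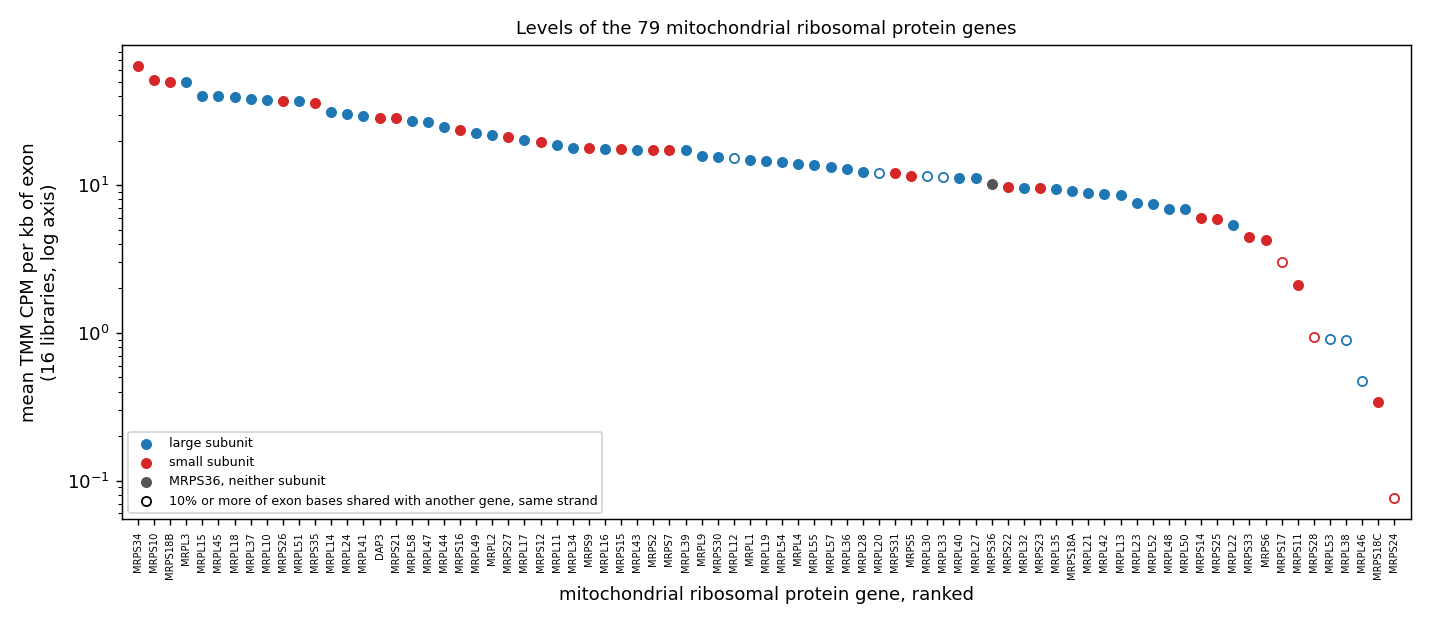
Mean TMM-scaled CPM per kb of exon over the 16 libraries (log axis) for each of the 79 genes, ranked, coloured by subunit, with open circles for the 10 genes that share at least 10% of their exon bases with another annotated gene on the same strand. Most genes lie between 5 and 63.8 CPM per kb, and 5 of the 6 genes under 1 CPM per kb are open circles.

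Several of the low values coincided with annotation that overlaps other genes. A gene overlapped another annotated gene on either strand in 50 of the 79 cases, and 10 genes shared at least 10% of their exon bases with another gene on the same strand. These 10 had a median of 1.98 CPM per kb, against 17.2 CPM per kb for the other 69, and they included 5 of the 6 genes under 1 CPM per kb. *MRPS24*, which had 0 to 10 counts per library, shares 23.2% of its exon bases with the read-through gene *URGCP-MRPS24*. *MRPL53*, with 5 to 26 counts, shares 45.2% of its exon bases with *CCDC142*, with 0.906 CPM per kb. Overlap did not always go with a low level, since *MRPL12*, which shares 68.2% with the annotated gene *AC139530.2*, had 15.3 CPM per kb, above the median. Neither *AC139530.2* nor *URGCP-MRPS24* has a row in the count matrix, whereas *CCDC142* has 43 to 133 counts per library. The strand setting and the treatment of reads that fall in several genes are not given in the sources used here, and their part in these levels was not tested. The levels of these genes are therefore uncertain as levels, and *MRPS24* was too low to be tested in any comparison, as was *MRPL53* between the -dox groups.

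The summed level of the 79 genes did not separate the groups. It was 3450 ± 337 CPM in SCR (-dox), 3587 ± 441 CPM in SCR (+dox), 3431 ± 235 CPM in NAA40-KD (-dox) and 3443 ± 76.2 CPM in NAA40-KD (+dox) (SD, n = 4 each), and the ranges overlapped between all groups. Within SCR the genes of a library deviated together, since the median gene of this set lay 0.23 on the log2 scale above its group mean in SCR (+dox) replicate 3 and 0.19 below it in replicate 2. In bulk RNA, fewer cells expressing a gene and less RNA per cell cannot be told apart.

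With doxycycline in both lines, the comparison of NAA40-KD with SCR asked whether the lines differ when both received the drug. 1 gene was higher and 10 were lower in NAA40-KD among the 78 tested, that is at an edgeR adjusted p below 0.05 (quasi-likelihood F test, with the p-values of all genes adjusted after Benjamini and Hochberg). Over all 13869 genes tested, 10.9% were called higher and 13.7% lower, so that 10 lower of 78 is close to the general rate and 1 higher is below it. None of the mitoribosomal genes also exceeded an absolute log2 fold change of 1, the fold threshold of the study, which 2.15% of all genes did. The median log2 fold change was -0.07 over the 78 genes and -0.0042 over all genes. Of the 10 lower genes, 9 belong to the large subunit, with *MRPS10* the exception, and the higher gene also encodes a large subunit protein. The large subunit makes up 51 of the 78 genes tested, and whether the calls favour it was not tested.

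*MRPL33*, a small large-subunit protein of the bacterial L33 family, showed the largest fall. Its levels were 11.6, 13.1, 13.8 and 11.2 CPM in NAA40-KD (+dox), replicates 1 to 4, and 23.2, 16.2, 28.1 and 15.4 CPM in SCR (+dox). All 4 NAA40-KD (+dox) libraries lay below all 12 other libraries of the series for this gene, the lowest of which had 15.2 CPM. The log2 fold change was -0.74 ± 0.16 (SE; edgeR adjusted p = 0.00352). *MRPL33* lies on chromosome 2 (27771717 to 27988087, plus strand, GRCh38), and 21.1% of its exon bases are shared with *BABAM2* on the same strand.

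*MRPL49*, a mitochondria-specific protein of the large subunit, had 50.4, 55.4, 57.0 and 57.1 CPM in NAA40-KD (+dox) and 73.7, 64.7, 79.9 and 69.8 CPM in SCR (+dox). The groups did not overlap, and the log2 fold change was -0.39 ± 0.09 (edgeR adjusted p = 0.00488). *MRPL23*, whose protein sits at the exit of the polypeptide tunnel, changed by -0.49 ± 0.14 (edgeR adjusted p = 0.0152), from 25.6 ± 5.47 CPM in SCR (+dox) to 18.2 ± 1.74 CPM (SD, n = 4). The other lower genes were *MRPL3*, *MRPL10*, *MRPL16*, *MRPL28*, *MRPL41*, *MRPL51* and *MRPS10*, with log2 fold changes from -0.39 to -0.25, and *MRPL10*, the smallest (-0.25, edgeR adjusted p = 0.0469), lost its call in 14 of 20 alternatives.

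*MRPS30*, which encodes a mitochondria-specific protein placed in the large subunit, was the gene that rose. It had 111, 122, 121 and 113 CPM in NAA40-KD (+dox) and 97.1, 82.6, 96.7 and 77.6 CPM in SCR (+dox). The 4 NAA40-KD (+dox) libraries again lay outside the range of the other 12, this time above it, with a log2 fold change of 0.40 ± 0.09 (edgeR adjusted p = 0.00431). An offset for gene length changed the number of calls in this comparison to 3 higher and 3 lower, and a fit over all 16 libraries left *MRPL33* lower and *MRPS30* higher as the 2 calls. Leaving out SCR (+dox) replicate 1, 3 or 4 left 7, 5 and 7 calls, whereas leaving out replicate 2 gave 15, 1 higher and 14 lower. Without NAA40-KD (+dox) replicate 1, 2, 3 or 4 there were 3, 3, 4 and 5.

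**Figure D2:**
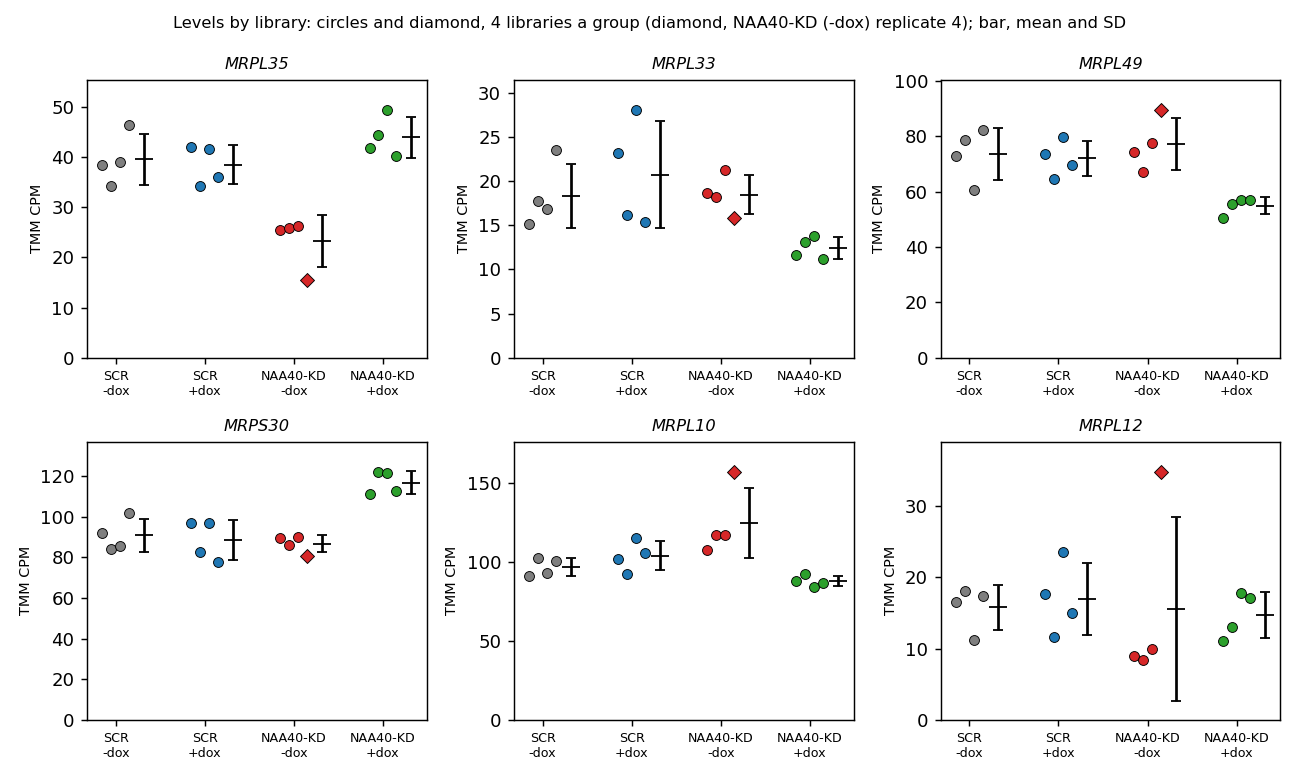
TMM-scaled CPM of 6 genes in the 4 libraries of each group, with the mean and SD as a bar, and NAA40-KD (-dox) replicate 4 as a diamond. *MRPL35* is low in all 4 NAA40-KD (-dox) libraries (15.5 to 26.2 CPM), *MRPL33* and *MRPL49* are low and *MRPS30* high in NAA40-KD (+dox), and the diamond lies far above its group for *MRPL12* and *MRPL10*.

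The start regions of *MRPL33*, *MRPL49* and *MRPS30* are shown because these are the genes called in both comparisons that involve NAA40-KD (+dox), the first pair falling and the last rising. Each run holds 250 bases before an annotated start and 50 after it, from RefSeq on GRCh38.p14, plus strand, written 5′ to 3′ with matches to the searched motifs in capitals. *MRPL49* has 2 annotated starts, of which the downstream one is given because the region of the upstream one holds no match.
MRPL33 (chr2:27771469-27771768): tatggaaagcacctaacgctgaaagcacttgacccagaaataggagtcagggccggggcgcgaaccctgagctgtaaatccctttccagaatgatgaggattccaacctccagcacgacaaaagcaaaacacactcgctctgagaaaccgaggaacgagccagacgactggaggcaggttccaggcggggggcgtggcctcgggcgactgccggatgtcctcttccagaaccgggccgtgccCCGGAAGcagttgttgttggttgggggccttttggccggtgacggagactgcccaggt
MRPL49 (chr11:65122071-65122370): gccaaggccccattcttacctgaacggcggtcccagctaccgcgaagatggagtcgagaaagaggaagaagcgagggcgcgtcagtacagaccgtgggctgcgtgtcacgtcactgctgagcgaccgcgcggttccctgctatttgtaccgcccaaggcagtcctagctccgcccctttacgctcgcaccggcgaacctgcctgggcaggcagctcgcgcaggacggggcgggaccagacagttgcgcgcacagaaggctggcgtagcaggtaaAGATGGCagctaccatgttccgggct
MRPS30 (chr5:44808697-44808996): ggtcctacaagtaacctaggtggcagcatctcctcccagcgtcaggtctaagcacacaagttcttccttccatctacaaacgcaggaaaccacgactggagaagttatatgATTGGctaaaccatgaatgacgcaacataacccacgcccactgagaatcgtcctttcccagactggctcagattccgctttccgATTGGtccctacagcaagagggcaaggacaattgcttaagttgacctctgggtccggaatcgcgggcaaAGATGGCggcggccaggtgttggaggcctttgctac
The motifs were the ETS core CCGGAAG, the YY1-like AGATGGC, the NRF1-like GCATGCG and the CCAAT box CCAAT, each on both strands, and the ETS, YY1 and NRF1 factors are known as regulators of nuclear genes for mitochondrial proteins. *MRPL33* held an ETS core directly before the start, *MRPL49* a YY1-like match shortly after it, and *MRPS30* a YY1-like match after the start and a pair of CCAAT boxes on the minus strand before it.

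Among all mitoribosomal start regions, the ETS core and the YY1-like letters were frequent. RefSeq start regions were found for 70 of the 79 genes, with 87 starts in all, and not for *MRPL2*, *MRPL10*, *MRPL13*, *MRPL15*, *MRPL21*, *MRPL23*, *MRPL35*, *MRPS28* and *MRPS36*. The ETS core was present in 37.9% of the 87 regions and in 10.3% of all 35116 start regions of the same length. The YY1-like letters were present in 28.7% and 5.41%, the NRF1-like letters in 8.05% and 3.91%, and the CCAAT box in 32.2% and 34.6%. A match describes the letters in the window and not the binding of a factor.

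Without doxycycline, the comparison of NAA40-KD with SCR set the libraries with low *NAA40* against their control. None of the 77 mitoribosomal genes tested was called, higher or lower, against 2.88% higher and 3.54% lower of all 13903 genes, and none passed the fold threshold, which 3.47% of all genes did. At an unadjusted p below 0.05 there were 5 (*MRPL35*, *MRPL55*, *MRPL24*, *MRPL17* and *MRPL10*) in edgeR, 5 in DESeq2 and 4 in limma-voom, against 3278, 4045 and 3297 genes of all kinds, which in edgeR is 23.6% of those tested. Each of DESeq2 and limma-voom called 1 mitoribosomal gene after adjustment, *MRPL35*. The median log2 fold change was -0.03 over the 77 genes and 0.04 over all genes, and 73 of the 77 values lay within 0.5 of 0.

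*MRPL35*, a large subunit protein of the bacterial L35 family, came closest to the threshold. Its levels were 25.5, 25.9, 26.2 and 15.5 CPM in NAA40-KD (-dox), replicates 1 to 4, and 38.4, 34.2, 39.0 and 46.4 CPM in SCR (-dox). All 4 libraries with low *NAA40* lay below the 12 others, which ranged from 34.2 to 49.5 CPM. The log2 fold change was -0.76 ± 0.20 with an edgeR adjusted p of 0.0508, just outside the threshold. Without replicate 4, the lowest of the 4 libraries, it was -0.62 ± 0.11 with an edgeR adjusted p of 0.000539. *MRPL35* lies on chromosome 2 (86199355 to 86213794, plus strand, GRCh38), has exons with 41.4% GC and overlaps no other annotated gene. Among the other genes with a small unadjusted p, *MRPL55* had a log2 fold change of 0.70 ± 0.28 (edgeR adjusted p = 0.170) and *MRPL24* one of 0.54 ± 0.23 (edgeR adjusted p = 0.186).

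Among the single libraries left out in turn, NAA40-KD (-dox) replicate 4 was the only one that changed the count of calls in this comparison. Without it, 4 genes were called higher and 10 lower of 77, against 17.1% higher and 19.4% lower of all genes, so that the share was below the background for higher and also for lower calls. The lower genes were *MRPL4*, *MRPL12*, *MRPL23*, *MRPL28*, *MRPL35*, *MRPL36*, *MRPL41*, *MRPS2*, *MRPS11* and *MRPS16*, and the higher ones *MRPL10*, *MRPL17*, *MRPL24* and *MRPL55*. The largest fall was that of *MRPL12*, the protein of the flexible stalk that recruits translation factors. It had 8.96, 8.44 and 9.92 CPM in replicates 1 to 3 of NAA40-KD (-dox), 34.8 CPM in replicate 4 and 16.5, 18.1, 11.2 and 17.4 CPM in SCR (-dox). Its log2 fold change was -0.01 ± 0.46 with all 8 libraries and -0.79 ± 0.16 without replicate 4 (edgeR adjusted p = 0.00134). *MRPL23* moved from -0.11 ± 0.33 to -0.58 ± 0.14 (edgeR adjusted p = 0.00438 without replicate 4), while *MRPL55* stayed positive, at 0.31 ± 0.11 (edgeR adjusted p = 0.0331).

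The deviation of replicate 4 followed the GC content of the genes. Over the 78 mitoribosomal genes that passed the filter in the whole series, its log2 deviation from the group mean had r = 0.857 with the GC percentage of their exons, which ranges from 35.0 to 71.9 over the 79, and r = 0.911 over 14366 genes of all kinds. These correlations are across genes of 1 library, and the values of the 3 other libraries (r = -0.80 to -0.79) are tied to it because deviations from a group mean sum to 0. The SD of its deviations over the mitoribosomal genes was 0.649, against 0.0936 to 0.261 in the 15 others. *MRPL41* and *MRPL12* have the highest GC percentages of the 79 genes, at 71.9 and 64.6. The correlation of the log2 fold changes with GC over the 77 genes was 0.567 with replicate 4 and -0.314 without it. With a GC offset in the fit of all 8 libraries, 14 of the 77 genes were called, against 38% of all genes, and of the 14 11 were shared in the same direction with the 14 called without replicate 4.

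**Figure D3:**
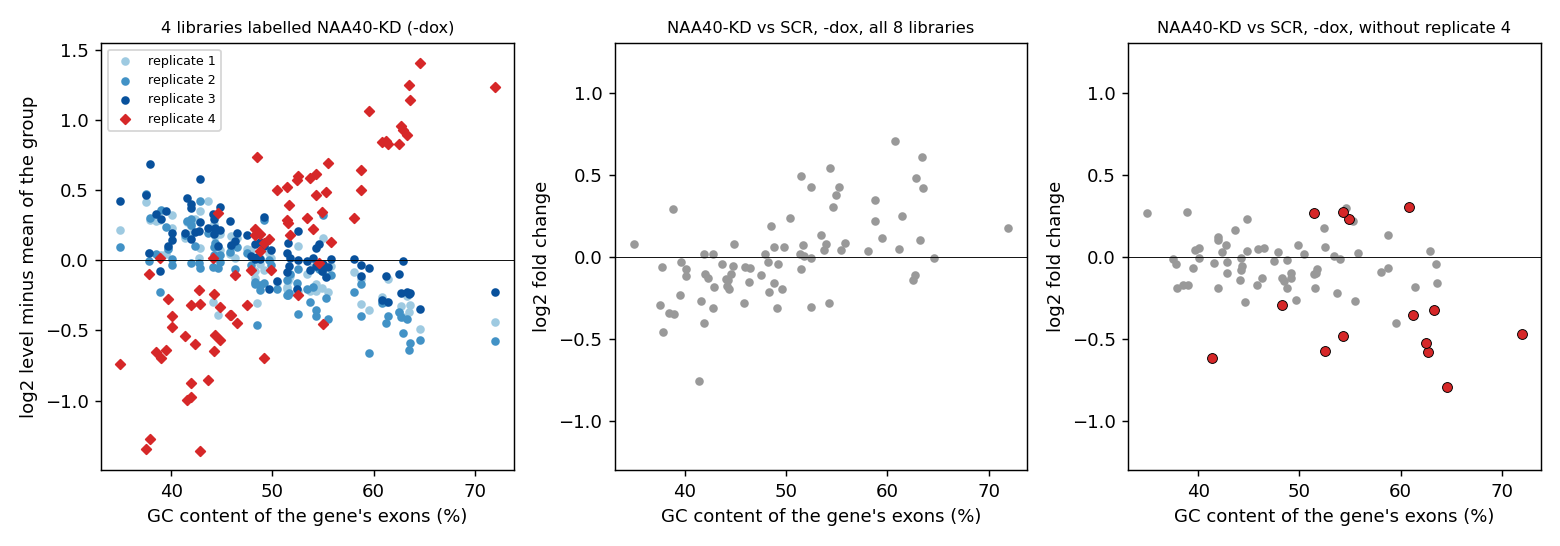
Left, log2 level minus the group mean against the GC content of the exons (%) for 78 genes in the 4 NAA40-KD (-dox) libraries; middle and right, log2 fold change of NAA40-KD against SCR without doxycycline for 77 genes, with all 8 libraries and without replicate 4, where large red points are genes at an adjusted p under 0.05. Replicate 4 (diamonds) rises with GC content (r = 0.857), and the slope of the fold changes turns from r = 0.567 to r = -0.314 without it.

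Within the NAA40-KD line, the +dox and -dox libraries compare cells with high and low *NAA40*. 2 of the 78 mitoribosomal genes tested were higher and 2 lower in +dox, against 4.71% higher and 5.5% lower of all 13844 genes, and none passed the fold threshold, which 3.99% of all genes did. The median log2 fold change was -0.01 over the 78 genes and -0.04 over all genes. *MRPL35* rose by 0.91 ± 0.18 on the log2 scale (edgeR adjusted p = 0.0175), from the -dox levels above to 41.8, 44.3, 49.5 and 40.1 CPM, and these +dox levels overlapped those of SCR. *MRPS30* rose by 0.43 ± 0.11 (edgeR adjusted p = 0.0428), from 86.7 ± 4.24 to 117 ± 5.78 CPM. *MRPL33* changed by -0.57 ± 0.14 (edgeR adjusted p = 0.0360), from 18.7, 18.2, 21.3 and 15.8 CPM in -dox. *MRPL49* changed by -0.50 ± 0.13 (edgeR adjusted p = 0.0448), from 77.3 ± 9.35 to 55.0 ± 3.16 CPM. These values share the NAA40-KD (+dox) libraries with the comparison of the lines under doxycycline.

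The number of calls within NAA40-KD depended on single libraries. Leaving out any 1 of the 7 libraries other than -dox replicate 4 left 0 or 1 call, whereas leaving out -dox replicate 4 gave 17 higher and 8 lower genes, against 25.8% and 26.6% of all genes. All 4 calls of the 8 libraries were among these 25 in the same direction. The 17 higher genes comprised 10 of the large subunit and 7 of the small subunit, and all 8 lower ones were of the large subunit. Of the genes tested, 51 were of the large and 26 of the small subunit. Without replicate 4, *MRPL12* was higher by 0.70 ± 0.15 (edgeR adjusted p = 0.000423) and *MRPS12*, the decoding-centre protein of the small subunit, by 0.49 ± 0.10 (edgeR adjusted p = 0.000534). With all 8 libraries these values were -0.08 ± 0.46 and -0.01 ± 0.34 and neither passed the test. *MRPL10*, which anchors the stalk formed by *MRPL12*, moved the other way, by -0.38 ± 0.06 without replicate 4 (edgeR adjusted p = 3.34e-06) and -0.51 ± 0.15 with it (edgeR adjusted p = 0.0571). *MRPL55* changed by -0.42 ± 0.09 without replicate 4 (edgeR adjusted p = 0.000225). With a GC offset over all 8 libraries, 19 of the 78 genes were called, against 46.4% of all genes. Of the 19, 16 were shared with the 25, and *MRPS30* was not among the 19, with a log2 fold change of 0.05 (edgeR adjusted p = 0.902). Without replicate 4, the same offset gave 0.44 for *MRPS30* (edgeR adjusted p = 2.86e-07).

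In the SCR line, doxycycline alone was compared with no drug, in cells without a shRNA against *NAA40*. No mitoribosomal gene of 78 was called higher or lower, and 0% of the 13882 genes of all kinds were called in either direction or past the fold threshold. At an unadjusted p below 0.05 there was 1 mitoribosomal gene in edgeR, *MRPL54*, and 0 in DESeq2 and limma-voom, against 271, 305 and 287 genes of all kinds. *MRPL54*, a mitochondria-specific protein of the large subunit, had 14.2, 11.3, 22.4 and 16.9 CPM in SCR (+dox) and 10.2, 14.1, 10.2 and 14.5 CPM in SCR (-dox), and the groups overlapped. Its log2 fold change was 0.40 ± 0.19 with an edgeR adjusted p of 1.00. *MRPL24* and *MRPS33* followed at 0.24 ± 0.13 and 0.21 ± 0.14, neither past the test. All 78 log2 fold changes lay between -0.24 and 0.40, with a median of 0.06 against -0.0016 over all genes, and the median SE of the 78 values was 0.14.

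The difference of the doxycycline contrasts between the lines was tested as an interaction over all 16 libraries. 1 of 78 genes was called higher and 1 lower, against 4.31% and 4.91% of all 14392 genes, and none passed the fold threshold, which 4.49% did. *MRPL35* differed between the lines by 0.95 ± 0.22 on the log2 scale (edgeR adjusted p = 0.0132), its contrast being 0.91 in NAA40-KD and -0.04 ± 0.12 in SCR. *MRPL10* differed by -0.61 ± 0.17 (edgeR adjusted p = 0.0327). It had 108, 117, 117 and 157 CPM in NAA40-KD (-dox), 87.7, 92.1, 84.3 and 87.0 CPM in NAA40-KD (+dox), 91.0 to 103 CPM in SCR (-dox) and 92.7 to 115 CPM in SCR (+dox). The 4 NAA40-KD (-dox) libraries were higher than all NAA40-KD (+dox) and SCR (-dox) libraries. *MRPS30* had the next smallest p, with 0.47 ± 0.15 (edgeR adjusted p = 0.0641). Without NAA40-KD (-dox) replicate 4, 4 genes were called higher (*MRPL35*, *MRPS11*, *MRPS25* and *MRPS30*) and 4 lower (*MRPL10*, *MRPL33*, *MRPL49* and *MRPL55*), against 11.9% and 12.3% of all genes. *MRPL35* was then 0.80 ± 0.15 (edgeR adjusted p = 0.000498), *MRPL10* -0.49 ± 0.12 (edgeR adjusted p = 0.00356) and *MRPL33* -0.82 ± 0.24 (edgeR adjusted p = 0.0156). Leaving out any other single library left 1 or 2 calls, *MRPL35* always among them.

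**Figure D4:**
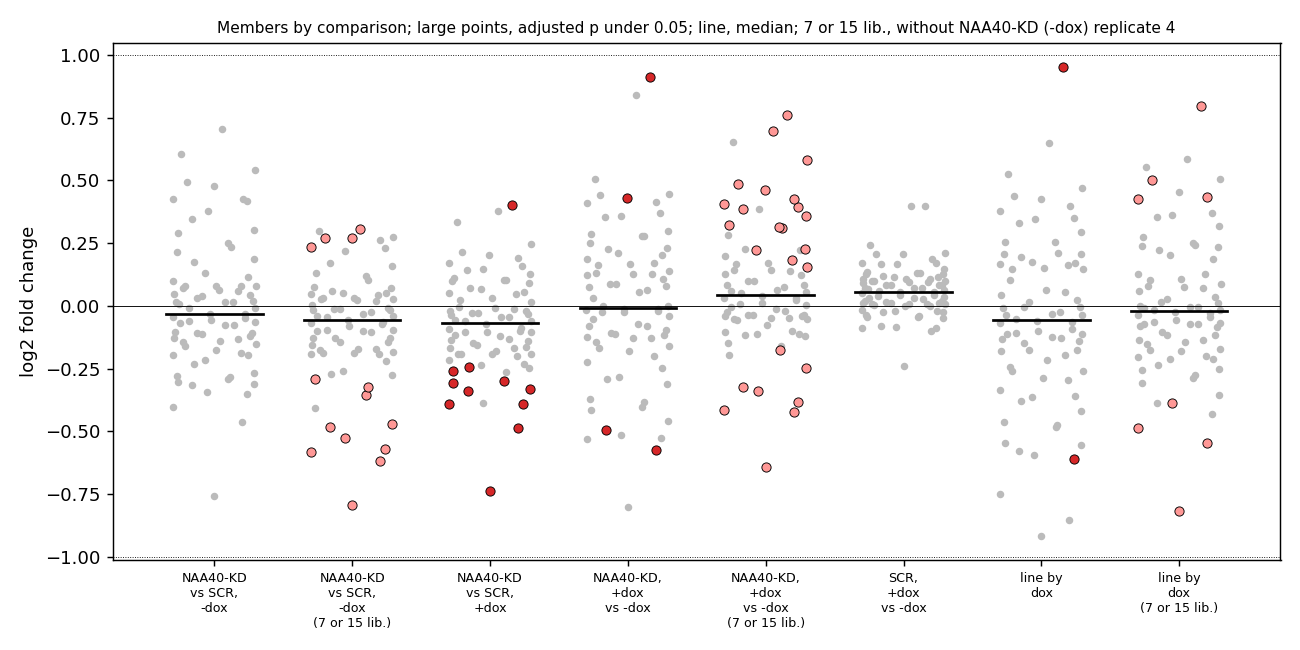
Log2 fold change of each mitoribosomal gene tested in the 5 comparisons, with all libraries and, where the comparison holds NAA40-KD (-dox) replicate 4, without it (7 libraries, or 15 for the interaction labelled line by dox). Large points are genes at an adjusted p under 0.05, the horizontal bars the medians, which lie between -0.07 and 0.06, and no gene reaches the dotted lines at -1 and 1.

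The medians of the subunits lay close together, and with all libraries few structural regions held a call. Under doxycycline, the median log2 fold change of NAA40-KD against SCR was -0.12 over 51 large subunit genes and -0.02 over 26 small subunit genes. Within NAA40-KD it was -0.08 and 0.13 with all 8 libraries, and 0.01 and 0.10 without -dox replicate 4. Of the 5 genes of the L7/L12 stalk region, which binds translation factors, only *MRPL10* was called with doxycycline in both lines. All 5 log2 fold changes were below 0, as were most of the large subunit, where 15 of 51 were above 0. Of all genes, 10.9% were called higher and 13.7% lower in this comparison. The central protuberance contacts a structural tRNA in the mitoribosome. Of its 9 genes, none was called in the pairwise or interaction edgeR fits with all libraries and neither offset nor block. Within NAA40-KD, *MRPL55* was called lower by DESeq2 and by the edgeR fit over all 16 libraries. The latter also called it higher than in SCR without doxycycline. Of the 8 genes at the polypeptide exit site, where nascent membrane proteins leave, *MRPL23* was the call with doxycycline in both lines. *MRPL45*, which faces the inner membrane there, had log2 fold changes between -0.07 and 0.09 and group means of 65.1 to 70.3 CPM. In the same pairwise and interaction fits, none of the 4 decoding centre and mRNA path genes of the small subunit was called. Nor was any of its 10 mitochondria-specific genes, whereas within NAA40-KD DESeq2 called *MRPS25* higher. Without NAA40-KD (-dox) replicate 4, each of these regions held calls within NAA40-KD. Higher in +dox were *MRPL12* (stalk), *MRPL38* (central protuberance), *MRPS11* and *MRPS12* (decoding and mRNA path), and *MRPS25*, *MRPS31* and *DAP3* (mitochondria-specific). Lower were *MRPL10* (stalk), *MRPL55* (central protuberance) and *MRPL44* (exit site). Of all genes, 25.8% were then higher and 26.6% lower.

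Few of the genes named for their roles were called. *DAP3*, a GTP-binding protein of the small subunit first described in cell death, had group means of 117 ± 16.5 CPM in NAA40-KD (-dox), 142 ± 6.45 CPM in NAA40-KD (+dox), 127 ± 7.7 CPM in SCR (-dox) and 133 ± 11.6 CPM in SCR (+dox) (SD, n = 4). *DAP3* was not called in the pairwise or interaction edgeR fits with all libraries and neither offset nor block. Within NAA40-KD it was higher without -dox replicate 4, by 0.18 ± 0.05 (edgeR adjusted p = 0.00594), as well as with the GC offset over all 8 libraries. *MRPL58*, a peptidyl-tRNA hydrolase that became a structural part of the large subunit, had group means of 28.0 to 32.5 CPM and was not called by edgeR. The paralogues *MRPS18A*, *MRPS18B* and *MRPS18C*, of which each mitoribosome holds all, were not called by edgeR in any comparison, with or without replicate 4. *MRPS18B* was the most level of them, with group means of 93.1 to 94.9 CPM, *MRPS18A* had 10.7 to 12.5 CPM and *MRPS18C* 1.53 to 1.89 CPM, the last from 10 to 32 counts per library. *MRPS36*, outside the ribosome, had 14.6 to 17.2 CPM and was not called either.

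Other genes of mitochondrial translation were counted from lists. The 4 mitoribosomal proteins with other symbols were *GADD45GIP1* of the large subunit and *CHCHD1*, *AURKAIP1* and *PTCD3* of the small subunit. *PTCD3* was higher in NAA40-KD than in SCR under doxycycline, by 0.30 ± 0.08 (edgeR adjusted p = 0.0105), and none of the 4 was called by edgeR in the other comparisons with all libraries. Of 28 mitoribosome assembly factors, 4 were higher and 2 lower in the same comparison, against 10.9% and 13.7% of all genes. Within NAA40-KD 1 was higher and 1 lower, against 4.71% and 5.5% of all genes. *RPUSD4*, a pseudouridine synthase for mitochondrial rRNA, was lower in both, by -0.95 ± 0.10 on the log2 scale (edgeR adjusted p = 4.52e-06) and -0.77 ± 0.14 (edgeR adjusted p = 0.0102), which share the NAA40-KD (+dox) libraries. *MTERF3*, which is needed for large subunit assembly, was higher by 0.61 ± 0.11 under doxycycline (edgeR adjusted p = 0.000699), and *MRM2*, an rRNA methyltransferase, by 0.55 ± 0.14 within NAA40-KD (edgeR adjusted p = 0.0410).

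Of 21 mitochondrial translation factors, 1 was lower in NAA40-KD without doxycycline and 1 higher within NAA40-KD, in each case *MTFMT*, which formylates the initiator methionyl-tRNA (-0.68 ± 0.17, edgeR adjusted p = 0.0463, and 0.62 ± 0.15, edgeR adjusted p = 0.0304). Under doxycycline 2 were higher (*GUF1* and *OXA1L*) and 1 lower (*MTRFR*). The shares over all genes were 2.88% higher and 3.54% lower without doxycycline, 10.9% and 13.7% with it, and 4.71% and 5.5% within NAA40-KD. Of 13 regulators of mitochondrial transcription and biogenesis that were tested, *PPARGC1B*, a coactivator of mitochondrial gene programmes, was lower without doxycycline (-0.82 ± 0.14, edgeR adjusted p = 0.0127) and higher within NAA40-KD (1.24 ± 0.12, edgeR adjusted p = 0.00150). Under doxycycline *PPARGC1B* and *POLRMT*, the mitochondrial RNA polymerase, were higher (0.77 ± 0.11, edgeR adjusted p = 5.52e-05, and 0.44 ± 0.09, edgeR adjusted p = 0.00255). Of 15 mitochondrial chaperones and proteases, *ATF5*, a transcription factor of the mitochondrial unfolded protein response that was kept on this list, was lower in NAA40-KD without doxycycline (-1.01 ± 0.22, edgeR adjusted p = 0.0269) and with it (-0.85 ± 0.09, edgeR adjusted p = 4.11e-06). *HSPA9*, the mitochondrial HSP70, was the other gene lower without doxycycline (-0.76 ± 0.16, edgeR adjusted p = 0.0224).

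Without NAA40-KD (-dox) replicate 4 the counts were larger, as they were over all genes. Of all genes, 17.1% were then higher and 19.4% lower against SCR without doxycycline, and 25.8% and 26.6% within NAA40-KD. In NAA40-KD against SCR without doxycycline, 2 assembly factors were then higher and 4 lower, 1 translation factor higher and 7 lower, 1 regulator higher and 4 lower, and 3 chaperones or proteases higher and 5 lower. Within NAA40-KD, 11 assembly factors were higher and 4 lower in +dox, 9 translation factors higher and 2 lower, 6 regulators higher and 1 lower, and 9 chaperones or proteases higher and 4 lower. In SCR, none of the genes on these lists was called with doxycycline.

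Of the 15 mitochondrially encoded rRNAs and mRNAs, 3 were higher and 1 lower in NAA40-KD than in SCR under doxycycline, and *MT-CO1* was the single call within NAA40-KD (0.59 ± 0.14, edgeR adjusted p = 0.0354). Of all genes, 10.9% were higher and 13.7% lower in the former comparison, and 4.71% and 5.5% in the latter. Without NAA40-KD (-dox) replicate 4, 8 of the 15 were higher and 0 lower within NAA40-KD, against 25.8% and 26.6% of all genes. The 2 mitochondrial rRNAs, which assemble with the proteins studied here, moved apart under doxycycline, with -0.51 ± 0.13 for *MT-RNR1* of the small subunit (edgeR adjusted p = 0.00773) and 0.56 ± 0.11 for *MT-RNR2* of the large subunit (edgeR adjusted p = 0.00170). Their summed level with the mRNAs ran from 53065 CPM in NAA40-KD (-dox) replicate 4 to 146795 CPM in SCR (-dox) replicate 3.

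The cytosolic ribosomal protein genes, 84 of which were tested, were compared because they are the counterpart of the set for the cytosolic ribosome. Their median log2 fold change was 0.30 in NAA40-KD against SCR without doxycycline, 0.15 without replicate 4, and 0.18 between SCR (+dox) and SCR (-dox), against -0.03, -0.06 and 0.06 for the mitoribosomal genes. By edgeR, 0 of the 84 were called with all libraries in either of these comparisons. Of all genes, 2.88% were higher and 3.54% lower without doxycycline, and 0% were called in SCR. Without replicate 4, 15 were higher and 1 lower without doxycycline, against 17.1% and 19.4% of all genes. Within NAA40-KD 2 were higher and 0 lower in +dox, with a median of -0.15, against 4.71% and 5.5% of all genes. Without replicate 4, 7 were higher and 7 lower there, against 25.8% and 26.6% of all genes. Under doxycycline 3 of the 84 were higher and 0 lower, with a median of -0.02, against 10.9% and 13.7% of all genes.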

How the data were processed

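RNA-seq of 16 HCT116 libraries was deposited as 1 table of raw counts per gene. Per the study's methods and the submitters' processing notes, the authors aligned the reads with STAR and counted them per gene with featureCounts. The notes name hg38 and GRCm38, the methods a mouse build, and all row identifiers are human Ensembl genes. Annotation and strand setting are not given in the sources used here. Gene types, positions and exon GC content were taken from GENCODE 29 (GRCh38).

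Groups followed the labels. Counts were tested with edgeR 4.0.16 (quasi-likelihood, robust, TMM; R 4.3.3) over the genes that exceeded 1 CPM in 4 or more of the libraries fitted, pairwise on the libraries of each comparison and with an interaction term over all 16. The SE is that of the log2 fold change, and a call is an adjusted p (Benjamini-Hochberg over all genes tested) below 0.05. CPM values in the text are scaled by TMM over all 16 libraries. The procedure was tested on simulated data. Alternatives were DESeq2 1.42.0, limma-voom 3.58.1 (the study's tool), other scaling, filters and thresholds, a fit over all 16 libraries, a replicate block, offsets for GC content and gene length, and each library left out in turn. The GC offset without NAA40-KD (-dox) replicate 4 was added after seeing the data.

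The mitoribosomal genes, the other lists and the rules were chosen with earlier results of these data known. Named were *NAA40*, 8 genes for their roles, the highest and lowest called log2 fold changes of each comparison (up to 5 each way without doxycycline and within NAA40-KD, otherwise up to 3, in genes with a group mean of at least 5 CPM), the 3 smallest unadjusted p where fewer than 3 were called, the 3 highest and 3 lowest levels per kb, genes too low to test, and up to 4 called genes of each other list. Genes named beyond these were chosen after their values were seen. No column of the table lacked a sample. Replicates of a group differed by more than sampling noise in every pair.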

Additional observations from a re-analysis of the deposited data

Results flagged for a closer look

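For each of the 79 genes, the summed level and *NAA40*, the highest and lowest library of each group of 4 was compared with the others by Dixon's gap ratio, which chance exceeds in about 1 group in 20. It was exceeded in 28 of 324 such groups, and 18 of the 28 were NAA40-KD (-dox) replicate 4. In that library 12 genes lay far above the other 3 libraries, at 34.8 CPM for *MRPL12*, 40.3 for *MRPL23*, 60.9 for *MRPL55*, 60.9 for *MRPL28*, 167 for *MRPS34*, 113 for *MRPS26*, 102 for *MRPL4*, 91.0 for *MRPL2*, 83.7 for *MRPL41*, 51.0 for *MRPL27*, 41.7 for *MRPL52* and 6.01 for *MRPL38*. The 6 far below them were at 15.5 CPM for *MRPL35*, 41.8 for *MRPL42*, 30.4 for *MRPS35*, 27.4 for *MRPL32*, 21.3 for *MRPL48* and 13.7 for *MRPL30*. The library's deviation over the mitoribosomal genes had r = 0.857 with GC content, and its part in each value was not tested.

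The other 10 cases were spread over 6 libraries. High values were those of *MRPS2* in SCR (+dox) replicate 3 (47.0 CPM), *MRPL51*, *MRPS28* and *MRPS31* in SCR (-dox) replicate 4 (74.7, 2.36 and 29.8 CPM), *MRPL3* and *MRPS35* in NAA40-KD (+dox) replicate 3 (128 and 86.4 CPM) and *MRPL42* in NAA40-KD (+dox) replicate 2 (161 CPM). Low values were those of *MRPL42* in SCR (-dox) replicate 2 (113 CPM), *MRPS15* in NAA40-KD (+dox) replicate 1 (45.6 CPM) and *MRPS18A* in NAA40-KD (+dox) replicate 3 (9.08 CPM).

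The contrast of the doxycycline labels differed between the lines, by the interaction test, for *MRPL35* (0.95 on the log2 scale, edgeR adjusted p = 0.0132) and *MRPL10* (-0.61, edgeR adjusted p = 0.0327) among the mitoribosomal genes. The test subtracts the contrast in SCR, which was -0.04 for *MRPL35* and 0.10 for *MRPL10*. The targeted gene *NAA40* differed by 1.46 in the same test. A drug response particular to the NAA40-KD line and the *NAA40* level therefore cannot be told apart here.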

How the results depend on the processing

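In SCR with and without doxycycline, 0 mitoribosomal genes were called in all 24 alternatives. *MRPL33* and *MRPS30* kept their calls in NAA40-KD against SCR with doxycycline in all 20 alternatives, and *MRPL35* kept its interaction in all 28, at 0.76 to 1.02 on the log2 scale (edgeR, DESeq2 or limma-voom adjusted p = 5.97e-05 to 0.0362). The alternatives counted for single genes leave out the changed thresholds. By edgeR with all libraries, TMM scaling, the 1 CPM filter and neither offset nor block, no mitoribosomal gene passed the fold threshold in either of these comparisons. Nor did any reach an adjusted p below 0.01 in the interaction under these settings. The interaction of *MRPL10* was lost in 11 of 28, and the call of *MRPL35* within NAA40-KD in 4 of 21, when any 1 NAA40-KD (+dox) library was left out (edgeR adjusted p up to 0.0719). Within NAA40-KD, *MRPS30* lost its call in 12 of 21, *MRPL33* in 11 and *MRPL49* in 10. With doxycycline, *MRPL23* lost its call against SCR in 4 of 20 (adjusted p up to 0.314) and *MRPL49* in 1. For the changes below the cause was not tested.

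Without doxycycline, the count of called genes in NAA40-KD against SCR (0) became 1 with DESeq2, limma-voom, upper-quartile scaling or an adjusted p below 0.1, 5 with all 16 libraries in 1 fit, 14 with the GC offset, 10 with that and the replicate block, and 15 with the GC offset without replicate 4; leaving out single libraries gave 0 to 14. With doxycycline, the 11 calls became 2 with all 16 libraries, 6 with the length offset, 0 with the fold threshold and 3 at an adjusted p below 0.01; leaving out single libraries gave 3 to 15. The length offset split them into 3 higher and 3 lower, and with the block 8 higher and 5 lower, against 1 and 10. Within NAA40-KD, the 4 calls became 7 with DESeq2, 1 without a filter, 8 with all 16 libraries, 1 with the block, 19 with the GC offset, 24 with that and the block, 1 with the length offset and the block, 26 with the GC offset without replicate 4, and 0 with the fold threshold or an adjusted p below 0.01; leaving out single libraries gave 0 to 25. The interaction's 2 calls became 7 with the GC offset, with or without the block, 9 with that offset without replicate 4, 0 with the fold threshold or an adjusted p below 0.01 and 5 below 0.1; leaving out single libraries gave 1 to 8. Its median moved from -0.06 to 0.087 with the length offset and the block. The summed level in NAA40-KD (+dox) was 3287 CPM without its highest gene, against 3443 CPM.

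Log2 fold changes that turned direction belonged to genes not called in that comparison by edgeR with all libraries and neither offset nor block. Leaving out single libraries gave -0.79 to 0.21 for *MRPL12* (-0.01 with all) and -0.58 to 0.038 for *MRPL23* (-0.11) without doxycycline, -0.29 to 0.70 for *MRPL12* (-0.08) and -0.22 to 0.49 for *MRPS12* (-0.01) within NAA40-KD, and -0.11 to 0.051 for *MRPL35* (-0.04) in SCR. Within NAA40-KD, *MRPL12* also took 0.19 with limma-voom, 0.17 with the block, 0.37 with the GC offset, 0.39 with that and the block (edgeR adjusted p = 0.0152), 0.11 with the length offset, 0.28 with that and the block, and 0.58 with the GC offset without replicate 4. *MRPS12* took 0.018 with DESeq2, 0.15 with limma-voom, 0.033 with library-size scaling and 0.033 without a filter, 0.15 with the block, 0.33 with the GC offset, 0.35 with that and the block (edgeR adjusted p = 0.0233), 0.12 with the length offset, 0.22 with that and the block, and 0.47 with the GC offset without replicate 4.

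The deviations of same-numbered libraries correlated at r = -0.469 to 0.155 without doxycycline and -0.046 to 0.209 with it. The values were 0.038 to 0.271 within NAA40-KD, positive in each pair, and -0.290 to 0.047 within SCR. Whether same-numbered libraries share more than a number was not tested. With the replicate block, 0, 12, 1 and 0 genes were called in these comparisons and 2 in the interaction. With 4 libraries a group and 0.304% to 0.410% of the counts on these genes, *MRPS24* and, without doxycycline, *MRPL53* were too shallow to test.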
